A study of Mus musculus with 23 samples.

Results

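Levels of mRNA were examined for 9 genes of the immunoglobulin superfamily that give T cells stimulatory or inhibitory signals: Cd28, Icos, Ctla4, Pdcd1, Btla, Lag3, Havcr2, Cd96 and Cd200. They were chosen by name with earlier results of these data known, as were the related lists below. Counts of members beside the share of all genes are therefore a description. Every probe set annotated to a chosen symbol alone was read. This gave 12 probe sets for 9 of the 18193 genes that the arrays name, and all 9 were among the 12516 genes with a signal high enough to be tested. Of these, 8 encode receptors carried by T cells, whereas Cd200 encodes a surface glycoprotein that is itself the ligand of the receptor Cd200r1.

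The study hybridised amplified RNA of sorted mouse CD4+ T cells to 23 Affymetrix M430v2 arrays in 9 groups of 2 to 4, to set regulatory T cells (Treg cells) of different origin and surface phenotype side by side. Treg cells are defined by the transcription factor Foxp3 and keep other lymphocytes in check. All cells were gated as CD3+, B220-, CD8a-, CD11b/c- and CD4+, and all mice were 6 to 10 weeks old and labelled male. C57BL/6 mice with a Foxp3-GFP reporter, pooled from 4 to 6 animals an array, gave 5 groups of 2 arrays each. These were GFP+ Treg cells (LP Treg) and GFP- conventional T cells (LP Tconv) of the small intestinal lamina propria, and peripheral lymph node (LN) Treg cells that were CD103-Klrg1-, CD103+Klrg1- or CD103+Klrg1+. CD103 is an integrin that binds epithelium, and Klrg1 is a lectin-like receptor of differentiated lymphocytes. For the homeostatic groups, GFP- CD4+ T cells of BDC2.5/NOD Foxp3-GFP mice, whose transgenic T cell receptor recognises an islet antigen, went into NOD RAG-/- hosts that lack lymphocytes of their own. After 14 days, Foxp3+ (converted) and Foxp3- cells of spleen and lymph nodes were sorted, with 3 arrays each and 2 to 3 mice an array. For the DEC groups, CD4+CD25- T cells of HA6.5/Thy1.2/RAG-/-/Balb/c mice went into Balb/c hosts that received 1 injection of 50 ng DEC-HA peptide. After 3 weeks, CD25+ (3 arrays) and CD25- cells (4 arrays) were sorted from spleen and lymph nodes, with 5 to 10 mice an array. Strain, T cell receptor and host differ together between the C57BL/6, homeostatic and DEC groups, and tissue sets the C57BL/6 groups apart as well. Their parts in a difference across these systems cannot be told apart. The lamina propria and lymph node groups come from the same kind of mice, without transfer, and differ in tissue by the labels. Each array is a pool of mice, and no label says whether pools of 1 group were sorted on separate days, so the p-values measure the spread between these pools.

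Full activation of a T cell needs a signal through its antigen receptor and a second one from a costimulatory receptor. Cd28, which binds Cd80 and Cd86 on antigen-presenting cells, is the classical one, and its relative Icos binds Icosl. Ctla4 takes the same ligands as Cd28 with higher affinity and is a main effector molecule of Treg cells, where it strips Cd80 and Cd86 from other cells. Pdcd1 (PD-1), Btla, Lag3, Havcr2 (TIM-3) and Cd96 restrain the cells that carry them through different ligands and signalling motifs, and several are known from effector Treg cells in tissues and from exhausted T cells. These genes partly lie together: Cd28, Ctla4 and Icos follow one another on chromosome 1 in the RefSeq gene order of GRCm38.p6, and Btla and Cd200 are neighbours on chromosome 16, which also carries Cd96. Lag3 lies beside Cd4 on chromosome 6, and Havcr2 lies on chromosome 11.

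Upstream sequences are shown for the members that rose or fell in a comparison and had an entry in the RefSeq promoter table of GRCm38.p6, which listed 6 of the 9 genes. Each runs over the 250 bases before the annotated start, 5′ to 3′ on the gene's strand, and capitals mark 5-base cores on either strand that NFAT factors (GGAAA) or forkhead factors such as Foxp3 (TGTTT) can bind.
Ctla4 (chr1:60908775-60909024, + strand): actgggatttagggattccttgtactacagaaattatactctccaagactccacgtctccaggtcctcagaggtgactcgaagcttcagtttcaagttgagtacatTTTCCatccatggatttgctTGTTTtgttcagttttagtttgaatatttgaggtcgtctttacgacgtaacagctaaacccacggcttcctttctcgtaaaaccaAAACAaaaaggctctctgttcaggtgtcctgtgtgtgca
Pdcd1 (chr1:94052554-94052803, - strand): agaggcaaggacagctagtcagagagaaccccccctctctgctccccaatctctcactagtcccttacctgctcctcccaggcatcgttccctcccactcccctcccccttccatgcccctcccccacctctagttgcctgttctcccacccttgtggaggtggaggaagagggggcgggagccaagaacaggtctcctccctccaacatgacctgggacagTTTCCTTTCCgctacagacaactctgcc
Havcr2 (chr11:46454681-46454930, + strand): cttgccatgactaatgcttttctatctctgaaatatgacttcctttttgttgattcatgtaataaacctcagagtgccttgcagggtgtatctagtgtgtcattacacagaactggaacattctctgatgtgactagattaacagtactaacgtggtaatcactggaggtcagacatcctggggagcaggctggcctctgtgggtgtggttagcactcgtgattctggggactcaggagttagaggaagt
Cd96 (chr16:46120249-46120498, - strand): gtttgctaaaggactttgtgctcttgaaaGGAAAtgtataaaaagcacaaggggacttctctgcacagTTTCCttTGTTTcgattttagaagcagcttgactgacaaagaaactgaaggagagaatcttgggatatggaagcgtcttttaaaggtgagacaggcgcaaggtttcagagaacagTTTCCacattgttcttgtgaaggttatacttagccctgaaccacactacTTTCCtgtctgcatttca
The Cd96 window held 4 NFAT cores and 1 forkhead core, the Ctla4 window 1 and 2, the Pdcd1 window 2 and 0, and the Havcr2 window none of either. An NFAT core was found in 55.6% of 32851 windows of the same length, and a forkhead core in 46.4%, so a match is common and only describes these letters.

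Defining T cell genes were present in every group, with 0 of 8 markers below the level used to select genes for testing. Foxp3 followed the sorts: its log2 difference was 6.56 for LP Treg over LP Tconv cells, 5.66 for homeostatic Foxp3+ over Foxp3- cells and 2.49 for DEC CD25+ over CD25- cells, which were sorted by CD25 and held Foxp3 at 7.98 ± 0.71 (SD, n = 4) log2 units in the CD25- cells. Array medians ran from 63.7 to 81.1 intensity units, and the lowest were replicates 3 and 4 of the DEC CD25- cells. The 3′ over 5′ signal of Gapdh, a sign of RNA quality, was 6.59 and 2.79 log2 units on these arrays against 1.63 to 3.92 on the others, and that of Actb 4.04 and 3.63 against 0.80 to 3.39. The 7 DEC arrays went against the male label, with Xist at 11.85 to 13.25 log2 units against 6.47 to 7.67 on the other 16 arrays. Both DEC groups share this, but comparisons of the DEC system with another system do not. Markers of other cells moved with the systems. The summed signal of 12 myeloid and dendritic genes was 11.10 to 12.97 log2 units in homeostatic Foxp3+ and 11.90 to 13.62 in Foxp3- arrays, 10.02 to 12.03 in DEC arrays and 9.91 to 10.77 in lamina propria and lymph node arrays, with 1 to 2 of the 12 genes below the testing level in homeostatic and 6 to 7 in lamina propria and lymph node groups. Erythroid genes summed to 8.77 to 11.61 in homeostatic and 7.87 to 8.47 in the other arrays. The sum of 7 B cell genes was 10.52 to 12.07 in lymph node and 9.57 to 9.83 in lamina propria arrays, where 3 of the 7 lay below the testing level against 1 in each lymph node group. The part of such cells in the results below was not tested, and in sorted bulk RNA, fewer cells that carry a gene cannot be told apart from less of its RNA per cell.

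**Figure D1:**
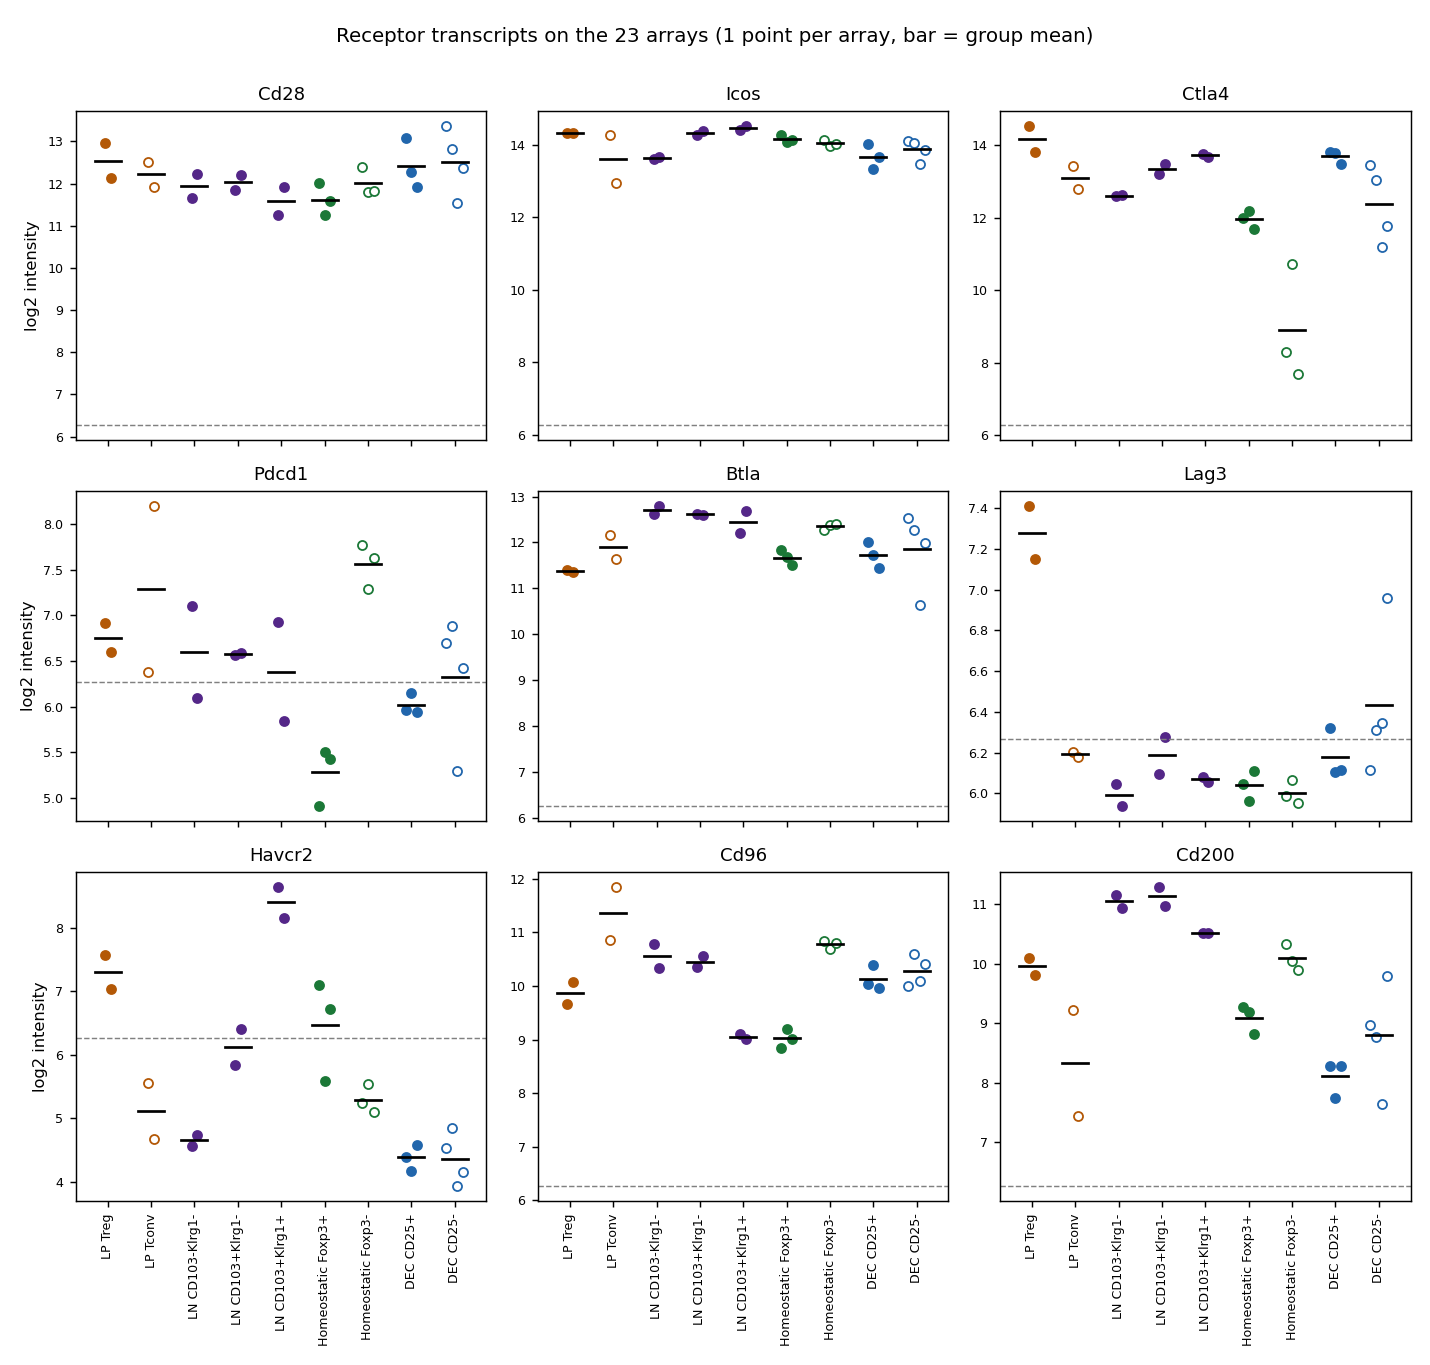
Log2 intensity (vertical axes, own scale in each panel) of the probe set that stands for each gene, by group (horizontal axis); points are arrays, bars are group means and the dashed line is 6.27, the median of all values. Ctla4 is lowest on the homeostatic Foxp3- arrays, Havcr2 is highest on the LN CD103+Klrg1+ arrays and Lag3 is highest on the LP Treg arrays.

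Across the 9 groups, the members differed widely in how much their level moved, as the plot of levels by group shows. The highest and lowest group means lay 5.27 log2 units apart for Ctla4, 4.04 for Havcr2, 3.03 for Cd200, 2.33 for Cd96 and 2.28 for Pdcd1. The spans were 1.33 for Btla, 1.29 for Lag3, and, on the brightest probe sets of genes with several, 0.94 for Cd28 and 0.86 for Icos. Other probe sets of Icos and Cd28 spread the groups more, as given below. Of 9 comparisons, Lag3 and Havcr2 were higher in the first-named cells in 4 each, Cd96 was lower in 4, Ctla4 was higher in 1 and Pdcd1 was lower in 1. Cd28, Icos, Btla and Cd200 passed the threshold in none of them with limma, on the probe set that stands for each gene.

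Treg cells were first set against partners of the same system without Foxp3, or with less of it. In the lamina propria, 3 of the 9 members changed, Lag3 and Havcr2 upwards and Cd96 downwards, at an adjusted p under 0.05, a threshold that 2.7% of all 12516 genes passed. The members' median log2 difference was 0.72 against -0.01 for all genes, and the arrays of the groups did not overlap for 7 members, as for 30.9% of all genes. In the homeostatic transfer, 3 members again changed, against 1.76% of all genes: Ctla4 rose, and Pdcd1 and Cd96 fell. Their median was -0.39 against -0.03 for all genes, and 6 members did not overlap against 22.3% of all genes. In the DEC system, 0 of 9 members passed with limma, against 0.495% of all genes, and at an unadjusted p under 0.05 stood 1 member, Ctla4, and 1852 genes. The members' median there was -0.14 against 0.16 for all genes, and arrays did not overlap for 1 member against 5.46% of all genes. Of the 62 genes past the threshold in the DEC system 50 were higher in CD25+ cells, whereas quantile normalization gave 44 of 83, cyclic loess 38 of 73, and the fit without both dim DEC CD25- arrays 22 of 53.

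**Figure D2:**
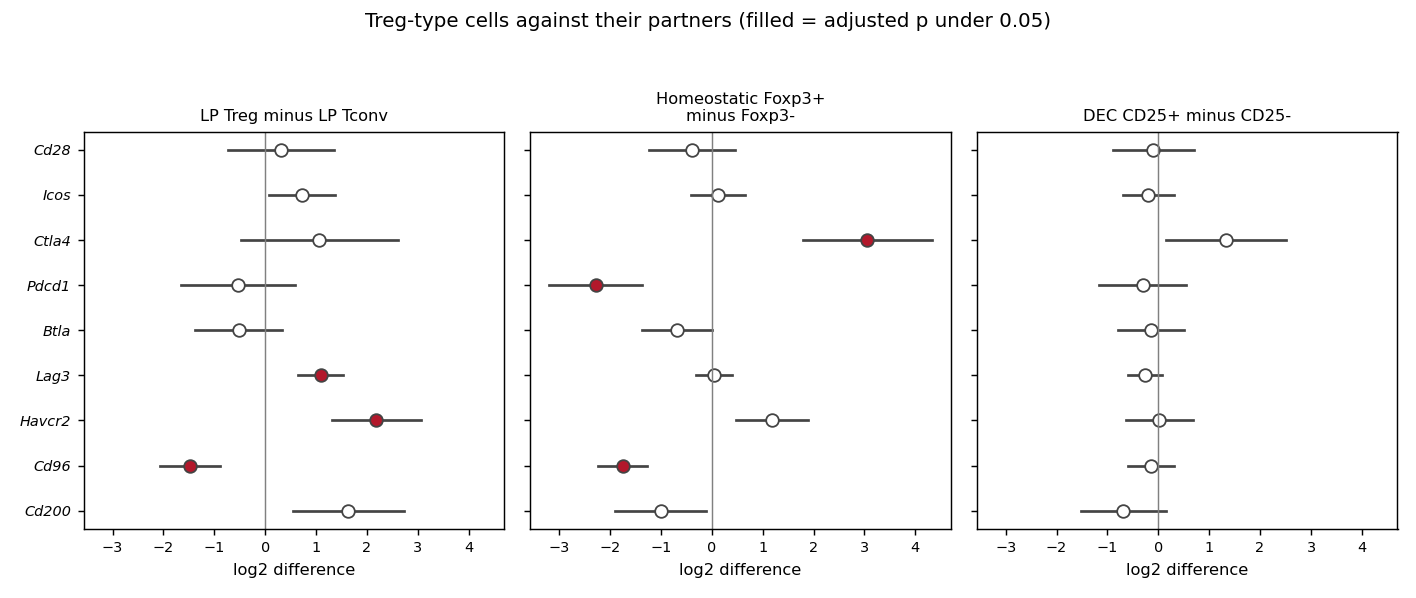
Log2 difference (horizontal axis) of each gene between Treg-type cells and their partners in the lamina propria, homeostatic and DEC systems; points are estimates of the model over all 23 arrays, lines are 95% intervals and filled points have an adjusted p under 0.05. Cd96 is filled on the lower side in the lamina propria and homeostatic panels, and no point is filled in the DEC panel.

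Among lymph node Treg cells, the step from CD103-Klrg1- to CD103+Klrg1- changed 0 of 9 members with limma, against 0.0959% of all genes; at an unadjusted p under 0.05 stood 255 genes, Havcr2 and Icos among them. The step from CD103+Klrg1- to CD103+Klrg1+ changed 2 members, a rise of Havcr2 and a fall of Cd96, against 0.647% of all genes. The same members, in the same directions, passed between CD103+Klrg1+ and CD103-Klrg1- cells, against 2.1% of all genes; these comparisons share arrays. LP Treg cells were then set against each lymph node subset, in comparisons that share the LP Treg arrays with each other and with the one against LP Tconv cells. Against CD103-Klrg1- cells 2 of 9 members passed, Lag3 and Havcr2, both higher in LP Treg cells, as did 4.55% of all genes. Against CD103+Klrg1- cells 1 of 9 passed, a rise of Lag3, as did 2.63% of all genes, and against CD103+Klrg1+ cells again 1 of 9, Lag3, as did 2.05% of all genes.

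**Figure D3:**
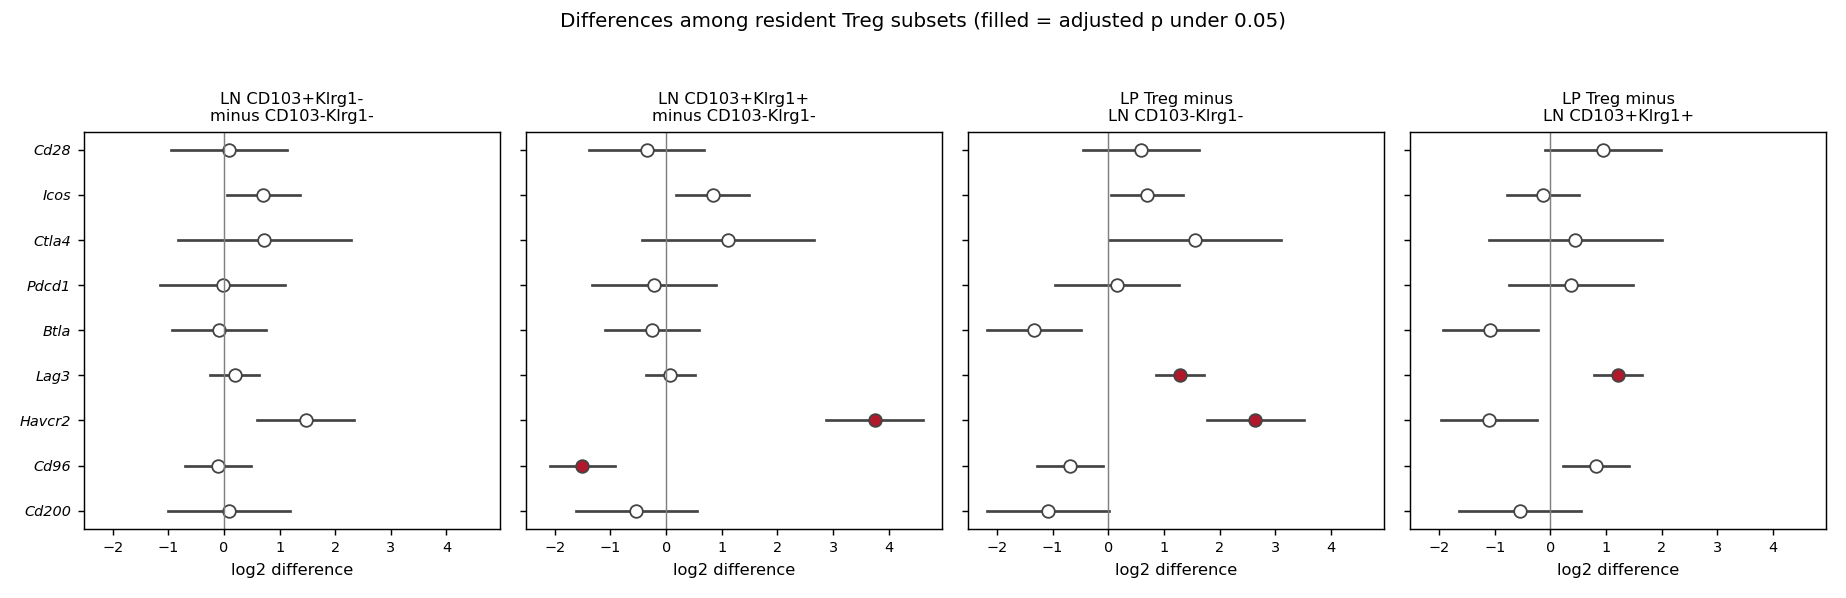
Log2 difference (horizontal axis) of each gene between lymph node Treg subsets and between LP Treg cells and lymph node subsets; points are estimates, lines are 95% intervals and filled points have an adjusted p under 0.05. Havcr2 lies to the right for CD103+Klrg1+ against CD103-Klrg1- cells, and Lag3 lies to the right for LP Treg cells.

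Cd28, the primary costimulatory receptor, stayed within a narrow band on 1437025_at, the probe set that stands for the gene. Its group means there ran from 11.60 log2 units in LN CD103+Klrg1+ cells to 12.54 in LP Treg cells, and single arrays lay between 11.26 and 13.37. Arrays of groups next to each other in that order overlapped at every step. Those of the lowest and highest group did not, as for 49.5% of all genes in that comparison. In no comparison did either of the 2 Cd28 probe sets pass the threshold. LP Treg and LP Tconv cells, for example, differed by 0.32 ± 0.49 log2 units (SE, n = 2 and 2; 95% interval -0.72 to 1.36), an interval that leaves room for more than a doubling. The other Cd28 probe set, 1417597_at, spread the groups more, with means from 10.10 in CD103+Klrg1+ to 12.15 log2 units in DEC CD25+ cells.

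Icos, a costimulatory receptor that T cells display after activation, gave different answers on its 3 probe sets. On 1436598_at, which stands for the gene, the CD103-Klrg1- arrays read 13.61 and 13.65, the CD103+Klrg1- arrays 14.28 and 14.39, the CD103+Klrg1+ arrays 14.41 and 14.52 and the LP Treg arrays 14.34 and 14.32 log2 units. All 4 groups thus sit near the top of the scale, where the highest value of the whole table is 26750 intensity units (14.71 in log2), and the CD103-Klrg1- arrays lie below the rest. Whether this probe set had reached a ceiling was not tested. The difference of CD103+Klrg1+ from CD103-Klrg1- cells was 0.84 ± 0.31 on this probe set (SE, n = 2 and 2; adjusted p = 0.337). The dimmer probe set 1421930_at read 10.84 and 10.93 on the CD103-Klrg1- arrays, 12.42 and 12.47 on the CD103+Klrg1- arrays, 13.11 and 13.37 on the CD103+Klrg1+ arrays and 12.98 and 12.65 on the LP Treg arrays. Here the lymph node subsets separate in steps without overlap, as 29.7% to 36.8% of all genes did by pair of subsets. The LP Treg arrays lie between the upper steps. Among all 21612 tested probe sets, it was 2.35 ± 0.51 log2 units higher in CD103+Klrg1+ than in CD103-Klrg1- cells (adjusted p = 0.0178) and 1.93 ± 0.51 higher in LP Treg than in CD103-Klrg1- cells (adjusted p = 0.0351). The third, 1421931_at, rose by 2.58 ± 0.54 and 2.60 ± 0.54 in the same comparisons (adjusted p = 0.0137 and 0.00684). Over the 14 alternatives, adjusted p values of Icos ran from 0.00591 to 0.953 in the first of these comparisons and from 0.00684 to 0.713 in the second.

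**Figure D4:**
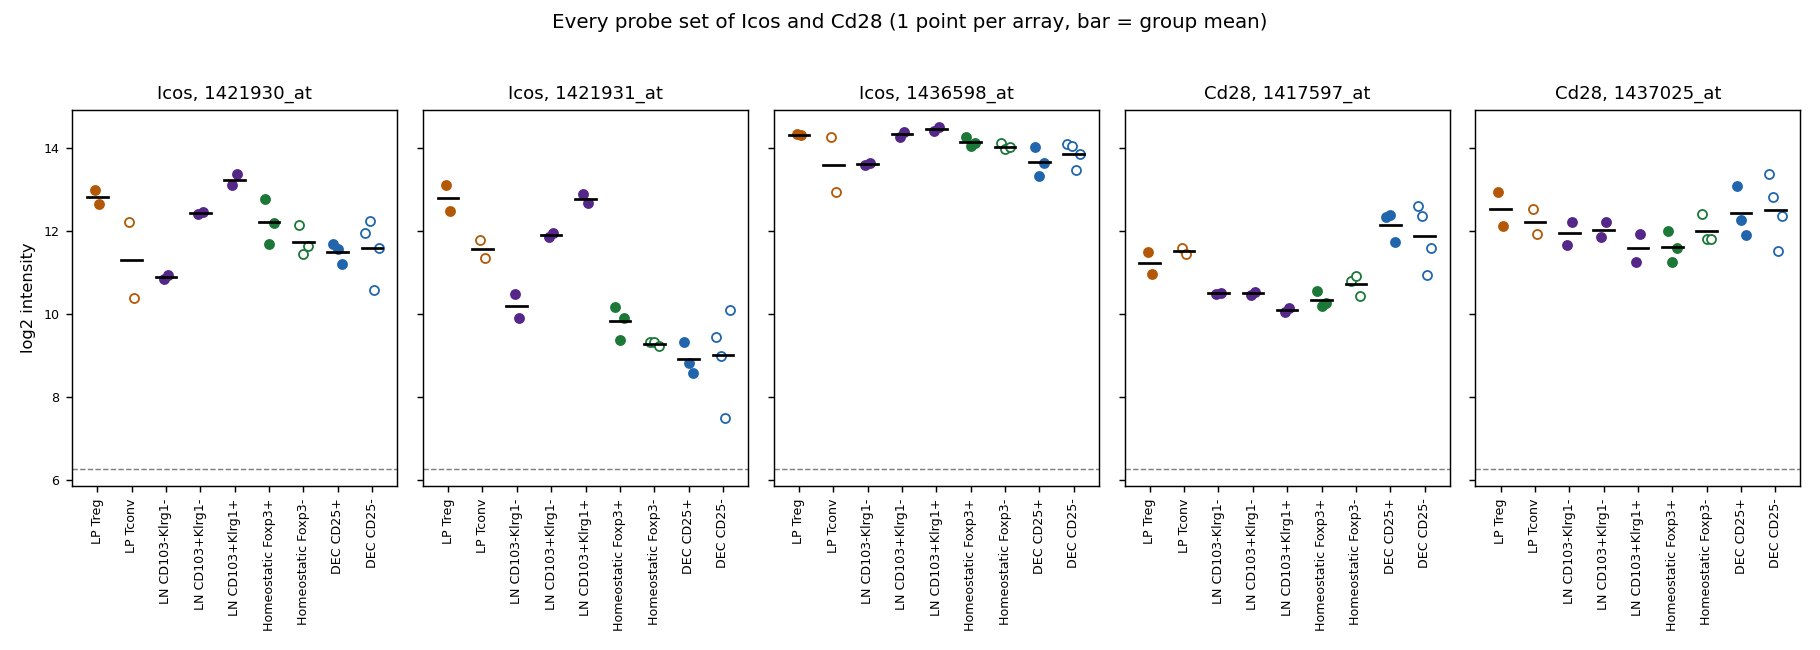
Log2 intensity (vertical axis, shared by the panels) of every probe set of Icos and Cd28, by group (horizontal axis); points are arrays and bars are group means. The brightest Icos probe set is nearly flat near 14, whereas the other two spread the groups over several log2 units.

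Outside the lymph node and lamina propria, the dim Icos probe set 1421931_at had group means of 8.90 to 9.83 log2 units in the homeostatic and DEC cells. Over all 9 groups its means ran from 8.90 to 12.80, and those of 1421930_at from 10.89 to 13.24. On the standing probe set, Icos of LP Tconv cells read 14.28 on replicate 1 and 12.94 on replicate 2, so the LP Treg arrays lay above both, but 1 array makes most of the gap. The difference of 0.72 ± 0.31 (adjusted p = 0.445) became 1.39 (adjusted p = 0.00507) without LP Tconv replicate 1 and 0.05 (adjusted p = 0.999) without replicate 2, and the adjusted p ran from 0.00507 to 0.999 over 14 alternatives. The same difference was 1.51 ± 0.51 on 1421930_at (adjusted p = 0.218) and 1.24 ± 0.54 on 1421931_at (adjusted p = 0.49). Homeostatic Foxp3+ and Foxp3- arrays overlapped on this probe set, at 14.06 to 14.26 and 13.97 to 14.12 log2 units. On 1421931_at they read 10.18, 9.38 and 9.92 against 9.32, 9.32 and 9.23, without overlap, and the difference was 0.54 ± 0.44 (adjusted p = 1); on 1421930_at it was 0.47 ± 0.42 (adjusted p = 1).

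Ctla4, the inhibitory counterpart of Cd28, rose in homeostatic Foxp3+ cells. The Foxp3+ arrays read 11.99, 12.17 and 11.69 log2 units, and the Foxp3- arrays read 8.29, 10.71 and 7.68. Every Foxp3+ array lay above every Foxp3- array, and Foxp3- replicate 2 stood more than 2 log2 units above the other 2 of its group. The difference was 3.06 ± 0.60 (SE, n = 3 and 3; 8.33-fold; adjusted p = 0.0084), with an adjusted p between 7.05e-05 and 0.0686 over 14 alternatives. It missed the threshold in 2 of them, with a difference of 2.76 (adjusted p = 0.0686) without Foxp3- replicate 1 and 2.45 (adjusted p = 0.0682) without Foxp3- replicate 3. Without Foxp3- replicate 2, the high array, the difference was 3.97. These Foxp3- cells held the lowest Ctla4 of the 9 groups.

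In the lamina propria, the partner cells also carried high Ctla4. LP Treg arrays read 14.53 and 13.81 and LP Tconv arrays 13.43 and 12.78 log2 units, all above the homeostatic Foxp3+ arrays. The groups did not overlap, but the difference of 1.07 ± 0.74 had an adjusted p of 0.913. DEC CD25+ arrays read 13.81, 13.78 and 13.47, and CD25- arrays 13.46, 13.03, 11.19 and 11.76. The CD25+ arrays lay above all CD25- arrays, and the lowest readings came from the dim replicates 3 and 4. Their brightness and 3′ over 5′ signals are given above, and the part of these in the difference was not tested. The difference was 1.33 ± 0.56 (SE, n = 3 and 4; adjusted p = 0.291), and without those arrays 0.44 (adjusted p = 0.983), within a range of adjusted p from 0.108 to 0.983 over 15 alternatives. Lymph node arrays read 12.58 and 12.63 for CD103-Klrg1-, 13.20 and 13.47 for CD103+Klrg1- and 13.76 and 13.68 for CD103+Klrg1+ cells. The subsets did not overlap, as for 29.7% to 36.8% of all genes by pair of subsets. CD103+Klrg1+ and CD103-Klrg1- cells differed by 1.11 ± 0.74 with an adjusted p of 1, in a model that pools the spread of all groups. With only the groups compared in the fit the adjusted p was 0.0328, the lowest of 12 alternatives that reached 1.

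Pdcd1, the receptor of Cd274 and Pdcd1lg2, moved the other way in the homeostatic transfer. Foxp3+ arrays read 4.92, 5.51 and 5.43 log2 units and Foxp3- arrays 7.77, 7.29 and 7.63. The groups lay far apart, and the Foxp3+ arrays were below the median of all values, where background can hold up a reading. Pdcd1 fell at least 4.86-fold in Foxp3+ cells, by 2.28 ± 0.43 on the log2 scale (SE, n = 3 and 3, adjusted p = 0.00649). The fall passed under all 14 alternatives, with adjusted p values of up to 0.0498. These Foxp3+ cells held the lowest and these Foxp3- cells the highest Pdcd1 mean of the 9 groups. Elsewhere Pdcd1 stayed near the median of all values: lymph node Treg arrays lay between 5.84 and 7.11, DEC arrays between 5.29 and 6.89, and lamina propria arrays between 6.38 and 8.20. Only LP Tconv replicate 2, at 8.20, exceeded the homeostatic Foxp3- arrays, and LP Treg and LP Tconv cells differed by -0.53 with an adjusted p of 1.

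Btla, an inhibitory receptor that binds the TNF receptor family member Tnfrsf14, was high in the lymph node subsets. Their arrays read 12.22 to 12.79 log2 units, against 11.39 and 11.36 in LP Treg cells, which held the lowest mean of the 9 groups. No lymph node array overlapped with LP Treg arrays, a split seen in 49.5% to 56.8% of all genes in these comparisons. The difference was -1.33 ± 0.40 against CD103-Klrg1- cells (SE, n = 2 and 2; adjusted p = 0.0749), -1.24 against CD103+Klrg1- cells (adjusted p = 0.141) and -1.08 against CD103+Klrg1+ cells (adjusted p = 0.283). These values missed the threshold, which 5, 5 and 2 of 12 alternatives passed. The adjusted p against CD103-Klrg1- cells was 0.0117 with quantile normalization and 0.000748 without the dim DEC CD25- arrays, in a range of 0.000563 to 0.383. Since B cells also express Btla, B cell markers are given here. Of 6 tested B cell genes, 2 to 3 passed as lower in LP Treg cells than in each lymph node subset. Ms4a1, a B cell surface gene, averaged 9.10 to 10.36 log2 units in the lymph node subsets and 6.23 in LP Treg cells. Among these subsets, CD103+Klrg1+ cells had the highest mean sum of 7 B cell genes (11.72 log2 units). Mean Btla was 12.45 in these cells, 12.61 in CD103+Klrg1- and 12.71 in CD103-Klrg1- cells, and the arrays of the subsets overlapped. The part of B cell RNA in the Btla difference was not tested. Homeostatic Foxp3+ and Foxp3- cells differed by -0.68 ± 0.33 (adjusted p = 0.679), with 11.50 to 11.83 and 12.27 to 12.41 log2 units and no overlap.

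Lag3, which resembles Cd4 and binds MHC class II, stood out in 1 group. LP Treg arrays read 7.41 and 7.15 log2 units, and LP Tconv arrays 6.20 and 6.18. The other 19 arrays lay between 5.94 and 6.96, so both LP Treg arrays exceeded every other array, and the means of 7 groups lay below the median of all values. Lag3 rose at least 2.13-fold over LP Tconv cells, by 1.09 ± 0.21 (SE, n = 2 and 2; adjusted p = 0.0048). It was also higher in LP Treg cells by 1.29 ± 0.21 than in CD103-Klrg1- (at least 2.44-fold; adjusted p = 0.000918), by 1.09 ± 0.21 than in CD103+Klrg1- (at least 2.14-fold; adjusted p = 0.00567) and by 1.21 ± 0.21 than in CD103+Klrg1+ lymph node cells (at least 2.32-fold; adjusted p = 0.00264). These 4 comparisons share the same pair of LP Treg arrays. With only the groups compared in the fit, the difference from LP Tconv cells did not pass (1.09, adjusted p = 0.259). Without LP Treg replicate 1 the difference was 0.96 from LP Tconv cells (adjusted p = 0.0977), 0.96 from CD103+Klrg1- cells (adjusted p = 0.13) and 1.08 from CD103+Klrg1+ cells (adjusted p = 0.0656), none of which passed. The one from CD103+Klrg1- cells also ended without replicate 1 of that subset (1.00; adjusted p = 0.0934). Over 12 alternatives each, the adjusted p against LP Tconv cells ran from 0.000134 to 0.259, and the one against CD103-Klrg1- cells never exceeded 0.0285.

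Havcr2 (TIM-3), a receptor found on effector T cells and on myeloid cells, rose stepwise over the lymph node subsets. The CD103-Klrg1- arrays read 4.57 and 4.74 log2 units, the CD103+Klrg1- arrays 5.85 and 6.40, and the CD103+Klrg1+ arrays 8.65 and 8.16. No subsets overlapped, as for 29.7% to 36.8% of all genes by pair of subsets. The last subset held the highest Havcr2 of the 9 groups. CD103+Klrg1+ cells exceeded CD103-Klrg1- cells at least 13.5-fold, by 3.75 ± 0.41 (SE, n = 2 and 2; adjusted p = 2.88e-05), and passed under all 12 alternatives. They exceeded CD103+Klrg1- cells at least 4.87-fold, by 2.28 ± 0.41 (adjusted p = 0.0109; range 0.000315 to 0.223 over 12 alternatives). The latter difference missed the threshold without replicate 1 of the CD103+Klrg1- cells (2.01; adjusted p = 0.223) and without replicate 1 of the CD103+Klrg1+ cells (2.04; adjusted p = 0.186). The first step, CD103+Klrg1- over CD103-Klrg1-, was 1.47 ± 0.41 with an adjusted p of 0.497.

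Havcr2 was also high in the lamina propria Treg cells. LP Treg arrays read 7.57 and 7.03, against 5.56 and 4.67 in LP Tconv cells, below the median of all values and with no overlap. The difference was 2.19 ± 0.41, at least 4.55-fold (adjusted p = 0.0046; range 0.00278 to 0.194 over 12 alternatives). It missed the threshold without LP Treg replicate 1 (1.92; adjusted p = 0.0963) and without LP Tconv replicate 2 (1.74; adjusted p = 0.0938). With only the groups compared in the fit, the difference from LP Tconv cells did not pass either (adjusted p = 0.194). LP Treg cells exceeded CD103-Klrg1- cells at least 6.26-fold, by 2.65 ± 0.41 (adjusted p = 0.000737). The differences of 1.18 from CD103+Klrg1- cells (adjusted p = 0.183) and -1.11 from CD103+Klrg1+ cells (adjusted p = 0.283) did not pass. Homeostatic Foxp3+ arrays read 7.10, 5.59 and 6.72, and Foxp3- arrays 5.25, 5.54 and 5.10. Foxp3+ replicate 2 nearly touched the Foxp3- arrays, and the difference of 1.18 ± 0.34 (adjusted p = 0.107) passed without that replicate (1.62; adjusted p = 0.00857), in a range of 0.00033 to 0.581 over 14 alternatives. All 7 DEC arrays were low, between 3.93 and 4.84, and the DEC groups differed by 0.02. The myeloid sum averaged 12.10 log2 units on homeostatic Foxp3+ and 12.69 on Foxp3- arrays, with overlapping ranges. On the lymph node arrays it was 9.91 and 10.77 in CD103+Klrg1+ cells and 9.93 to 10.27 in the others. Its part in the Havcr2 differences was not tested.

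Cd96, which binds the poliovirus receptor Pvr and shares it with Cd226 and Tigit, fell in 4 comparisons. Homeostatic Foxp3+ arrays read 8.85, 9.20 and 9.01 log2 units and Foxp3- arrays 10.83, 10.70 and 10.80. The spread within each group was small beside the gap of 1.75 ± 0.23 (SE, n = 3 and 3; 3.37-fold; adjusted p = 2e-04), and the fall passed under all 14 alternatives, with an adjusted p of at most 0.0025. Since NK and CD8+ T cells also express Cd96, the sum of 5 markers of these cells is given here: 10.56 to 11.01 log2 units on Foxp3+ and 10.95 to 11.30 on Foxp3- arrays, a part that was not tested. LP Treg arrays read 9.67 and 10.08 and LP Tconv arrays 10.86 and 11.86, without overlap. Cd96 fell by 1.49 ± 0.28 there (2.8-fold; adjusted p = 0.0043; range 0.00041 to 0.41 over 12 alternatives). With only the groups compared in the fit, the fall did not pass (adjusted p = 0.41). Without LP Treg replicate 1 the difference was -1.28 (adjusted p = 0.0969), and without LP Tconv replicate 2, the highest of the 23 arrays for this gene, it was -0.99 (adjusted p = 0.0985).

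In the lymph node, the fall of Cd96 came with Klrg1. CD103-Klrg1- arrays read 10.78 and 10.34, CD103+Klrg1- arrays 10.35 and 10.56, and CD103+Klrg1+ arrays 9.10 and 9.01 log2 units. The first subsets overlapped, and the last lay more than 1 log2 unit below both. Cd96 fell by 1.40 ± 0.28 from CD103+Klrg1- to CD103+Klrg1+ cells (2.64-fold; adjusted p = 0.0237), and by 1.51 ± 0.28 from CD103-Klrg1- to CD103+Klrg1+ cells (2.84-fold; adjusted p = 0.00406). Leaving out any 1 of the 4 arrays ended the former call, with differences between -1.50 and -1.30 and adjusted p values of 0.131 to 0.28. The latter ended without replicate 1 of the CD103-Klrg1- cells (-1.29; adjusted p = 0.0943). DEC arrays, at 9.96 to 10.59, overlapped between CD25+ and CD25- cells, which differed by -0.14.

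Cd200, whose product sends an inhibitory signal to cells with Cd200r1, lay on opposite sides in the lamina propria and in the homeostatic transfer. LP Treg arrays read 10.10 and 9.82 and LP Tconv arrays 9.22 and 7.44 log2 units. Homeostatic Foxp3+ arrays read 9.28, 9.19 and 8.81 and Foxp3- arrays 10.33, 10.06 and 9.90. Neither pair of groups overlapped, with Treg cells on the high side in the lamina propria and the Foxp3+ cells on the low side after transfer. The lamina propria difference was 1.63 ± 0.52 (SE, n = 2 and 2; adjusted p = 0.145; range 0.0112 to 0.974 over 12 alternatives). The homeostatic one had a 95% interval of -1.89 to -0.11 (SE 0.43, n = 3 and 3; adjusted p = 0.511; range 0.00051 to 1 over 14 alternatives), so neither passed. Without LP Tconv replicate 1, the lamina propria difference was 2.52 (adjusted p = 0.0112), and without replicate 2 it was 0.74 (adjusted p = 0.974). Lymph node Treg arrays held the highest Cd200, between 10.51 and 11.30, and DEC CD25+ arrays, at 7.75 to 8.29, the lowest mean.

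Whether a difference between Treg-type cells and their partners was itself unequal between systems was tested gene by gene. The tests against the DEC system take in its dim arrays, and fits without them are given below. These tests also take in its higher Xist level, whose part was not tested. For the lamina propria against the homeostatic transfer, 0 of 9 members passed with limma, against 0.775% of all genes; 690 genes had an unadjusted p under 0.05, with Lag3 (1.05 ± 0.27) and Cd200 (2.63 ± 0.67) closest among the members, both at an adjusted p of 0.0937. Over 18 alternatives, the adjusted p for Cd200 ran from 0.00568 to 0.506. Against the DEC system, 1 member passed, against 1.01% of all genes: Lag3 differed by 1.34 ± 0.26 (adjusted p = 0.0146; range 0.00364 to 0.295 over 19 alternatives). That call ended without LP Treg replicate 1 (1.21; adjusted p = 0.124) and without LP Tconv replicate 2 (1.33; adjusted p = 0.0644). With only the groups compared in the fit, Lag3 did not pass either (adjusted p = 0.295). With same-numbered arrays of both systems paired as blocks, 4 members passed, since Havcr2 (2.24; adjusted p = 0.0471), Cd96 (-1.39; adjusted p = 0.00755) and Cd200 (1.99; adjusted p = 0.0471) joined Lag3. Between the homeostatic and DEC systems, 1 member passed, against 0.336% of all genes: the fall of Cd96 was larger after homeostatic transfer by 1.61 ± 0.31 (adjusted p = 0.0279; range 0.00215 to 0.111 over 21 alternatives). It missed the threshold with quantile normalization (-1.27; adjusted p = 0.107), with cyclic loess (-1.25; adjusted p = 0.111), without both dim DEC CD25- arrays (-1.59; adjusted p = 0.0737), and without any of 7 single arrays (-1.70 to -1.48; adjusted p of 0.0523 to 0.109). These arrays were Foxp3+ replicates 1 and 3, Foxp3- replicates 1, 2 and 3, and DEC CD25+ replicates 2 and 3.

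The ligands of these receptors, which Treg cells also express in part, were read from a list of 17 genes, of which 12 could be tested. Pdcd1lg2, a ligand of Pdcd1, was the only 1 to pass against partner cells, where 2.7%, 1.76% and 0.495% of all genes did. It rose by 1.30 ± 0.28 in LP Treg over LP Tconv cells (adjusted p = 0.0118) and by 1.13 ± 0.23 in homeostatic Foxp3+ over Foxp3- cells (adjusted p = 0.0102), where its receptor gene fell. It was also higher in LP Treg cells than in CD103-Klrg1- (1.24 ± 0.28; adjusted p = 0.0118) and CD103+Klrg1+ cells (1.20 ± 0.28; adjusted p = 0.0274). Lgals3, a galectin that binds Lag3, was higher in CD103+Klrg1+ cells, by 2.54 ± 0.41 than in CD103+Klrg1- (adjusted p = 0.00386) and by 2.21 ± 0.41 than in CD103-Klrg1- cells (adjusted p = 0.00406). LP Treg cells differed from CD103+Klrg1+ cells by -2.33 ± 0.41 in Lgals3 (adjusted p = 0.00337). Cd200r1, the receptor of Cd200, was higher by 1.53 ± 0.38 in CD103+Klrg1+ than in CD103-Klrg1- cells (adjusted p = 0.0452). Cd86, a ligand of Cd28 and Ctla4, was lower by 1.45 ± 0.29 in LP Treg than in CD103+Klrg1- cells (adjusted p = 0.00886).

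Among 17 tested genes of 20 listed as other coreceptors of the family, none passed with limma against partner cells or among lymph node subsets. In these comparisons 0.0959% to 2.7% of all genes passed, shares too small for 0 of 17 to tell the list from other genes. Slamf1, a receptor by which lymphocytes bind each other, was higher in LP Treg than in CD103-Klrg1- cells by 1.54 ± 0.33 (adjusted p = 0.00768) and than in CD103+Klrg1- cells by 1.27 ± 0.33 (adjusted p = 0.0457). Of 22 tested genes of 24 listed for signalling and trafficking, Trat1 fell in LP Treg cells: its product stabilises the T cell receptor complex and helps to bring Ctla4 to the surface. The fall was 2.15 ± 0.35 against LP Tconv cells (adjusted p = 0.00106), where 2.7% of all genes passed. It was 1.49 to 1.70 against the lymph node subsets, where 2.05% to 4.55% of all genes passed. Grap2 (Gads), an adaptor that binds the Cd28 tail, was higher in LP Treg cells than in each lymph node subset by 1.27 to 1.31. Ptpn6 (SHP-1), a phosphatase that inhibitory receptors recruit, was lower in LP Treg than in CD103-Klrg1- cells, with a difference of -1.15 ± 0.31 (adjusted p = 0.0402).

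Of 20 transcription factors listed as known to act on inhibitory receptor genes, 19 were tested; Foxp3, the gene of the sort, is among them. In homeostatic Foxp3+ cells 5 of 19 passed, against 1.76% of all genes, with Foxp3 as 1 of the 5. Prdm1 (Blimp-1) rose by 1.59 ± 0.34 (adjusted p = 0.0156), whereas Bcl6 fell by 1.64 ± 0.31 (adjusted p = 0.00574), Id2 by 1.73 ± 0.31 (adjusted p = 0.00447) and Tox2 by 2.52 ± 0.55 (adjusted p = 0.0193). Bcl6 and Tox2 belong to the programme of follicular helper T cells, which carry much Pdcd1. A part of any of these factors in the fall of Pdcd1 was not tested. In CD103+Klrg1+ over CD103-Klrg1- cells 6 of 19 passed, against 2.1% of all genes, and the median of the list was 0.59 against -0.01 for all genes. Of these 4 rose, namely Prdm1 (3.13 ± 0.41), Maf (1.98 ± 0.40), Id2 (2.72 ± 0.38) and Rora (2.13 ± 0.36), and 2 fell, namely Bach2 (-2.05 ± 0.50) and Id3 (-2.23 ± 0.57). The same 6 genes passed in the same directions in LP Treg against CD103-Klrg1- cells, a comparison that shares the latter arrays and in which 4.55% of all genes passed. LP Treg cells also held more Id2 (3.15 ± 0.38) and less Bach2 (-2.43 ± 0.50) and Id3 (-2.25 ± 0.57) than CD103+Klrg1- cells, and CD103+Klrg1+ cells held more Id2 than CD103+Klrg1- cells (1.90 ± 0.38). In LP Treg against LP Tconv cells and in the DEC system 1 of 19 passed, which was Foxp3, against 2.7% and 0.495% of all genes.

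Genes with the most similar profile over the 9 group means were taken from the other 12515 tested genes by Pearson correlation, as a description. For Havcr2 these were Sv2c (0.97), Alox8 (0.96) and the cell cycle inhibitor Cdkn2c (0.96), and for Icos they were Fmnl2 (0.91), Cdkn2c (0.90) and Gpr160 (0.90). For Lag3 they were Gkn3 (0.95), Daw1 (0.94) and Bmerb1 (0.91), and for Ctla4 they were Ddx52 (0.93), Dtnb (0.92) and Snhg5 (0.91). Pdcd1 came closest to Sh2b3 (0.95), Tspan5 (0.90) and Clec2l (0.90), and Cd96 to Thada (0.91), Pip4k2a (0.89) and Clec2l (0.89). Btla was most like Sepsecs (0.96), Zbtb14 (0.95) and Vezt (0.95), and Cd200 most like Tmem164 (0.97), R3hdm4 (0.97) and Zfp266 (0.96). Cd28 was most like Zfp651 (0.98), Prpf4 (0.98) and Hivep2 (0.92). The 9 means of these similar genes spanned 0.28 (Zfp651) to 4.19 log2 units (Fmnl2). Bmerb1 (0.33), Clec2l (0.35) and Prpf4 (0.48) also moved little, so a high correlation can rest on small shifts. Between members, the profiles of Icos and Havcr2 (0.87), Pdcd1 and Cd96 (0.76) and the neighbours Btla and Cd200 (0.73) ran together over the 9 means, whereas those of Havcr2 and Cd96 ran against each other (-0.67). All profiles come from the same 23 arrays and share their brightness.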

How the data were processed

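On 23 arrays, mRNA of sorted CD4+ T cells was measured after Trizol extraction and 2 rounds of MessageAmp amplification, per the labels' protocols. The authors deposited values in the unit intensity, made with the RMA algorithm in GenePattern per the design text; versions are not given in the sources used here. Log2 was taken with no pseudocount. A gene was read from its probe set of highest mean, and tested where a group mean exceeded the median of all values (77.0 units, 6.27 in log2). This left 12516 of 18193 genes named by 1 symbol; 932 probe sets with several symbols and 9224 with none, 64 controls included, were not used.

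Using limma 3.58.1 under R 4.3.3, a mean per group was estimated in 1 fit of all 23 arrays. The groups share 1 estimate of each gene's spread (14 residual and 3.48 prior degrees of freedom). The fit was checked on simulated arrays drawn independently, so the check does not cover the correlation of same-numbered arrays given below. Tests were two-sided, adjusted by Benjamini-Hochberg over all tested genes, with a threshold of 0.05. Where the lower group mean lay under 6.27, folds are "at least". Sequences were read in Python 3.11.15 from the RefSeq table, trimmed to the 250 bases before the start and limited to genes with an entry, instead of the windows first planned; protein sequences were not used here. Residuals of same-numbered arrays correlated at 0.486 to 0.661 in the homeostatic, 0.385 to 0.512 in the DEC and -0.068 in the lamina propria groups. In an alternative run for every comparison, same-numbered arrays were treated as pairs, although no label states the pairing. The members and lists were chosen with earlier results of these data known. Members were named throughout, and of other genes those of the related lists past the threshold in the 9 comparisons between groups, and the 3 most alike in profile. The array number limits the precision. Scan dates were not used here.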

Additional observations from a re-analysis of the deposited data

Results flagged for a closer look

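Lag3 had a difference between LP Treg and LP Tconv cells that exceeded the one between DEC CD25+ and CD25- cells by 1.34 ± 0.26 log2 units, by a test of the difference itself (limma, adjusted p = 0.0146). Cd96 had one between homeostatic Foxp3+ and Foxp3- cells that lay -1.61 ± 0.31 log2 units from the DEC one (adjusted p = 0.0279). The myeloid marker sum averaged 12.10 log2 units on homeostatic Foxp3+ and 12.69 on Foxp3- arrays, with overlapping ranges (11.10 to 12.97 and 11.90 to 13.62). It averaged 11.66 on DEC CD25+ and 10.91 on CD25- arrays, again with overlapping ranges (11.05 to 12.03 and 10.02 to 11.45). Its part in the Lag3 and Cd96 differences was not tested. Both tests take in the DEC arrays with high Xist, whose part was not tested either. Without the dim replicates 3 and 4 of the CD25- cells, the Cd96 value was -1.59 (limma, adjusted p = 0.0737). That missed the threshold, whereas Lag3 still passed.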

How the results depend on the processing

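No member reversed a called direction under any alternative that was run. All were planned. Counts of members past the threshold changed as follows. With only the groups compared in the fit, LP Treg against LP Tconv gave 0, homeostatic cells 5, LN CD103+Klrg1+ against CD103-Klrg1- 3, LP Treg against LN CD103-Klrg1- 5 and against LN CD103+Klrg1- 3, the lamina propria and homeostatic interaction 1 and the lamina propria and DEC interaction 0. With array weights, homeostatic cells gave 6, LN CD103+Klrg1- against CD103-Klrg1- 2, LN CD103+Klrg1+ against CD103-Klrg1- 3, LP Treg against the lymph node subsets 6, 4 and 3, and each interaction with the lamina propria 2. With quantile normalization LP Treg against LN CD103+Klrg1- gave 2 and the homeostatic and DEC interaction 0; with cyclic loess these were 2 and 0, and the lamina propria and DEC interaction 2, as with the mean of probe sets. LP Treg against LN CD103-Klrg1- gave 3 with quantile normalization, cyclic loess and the mean of probe sets, which also gave 3 for LN CD103+Klrg1+ against CD103-Klrg1-. Without both dim DEC CD25- arrays, LP Treg against LP Tconv gave 4, homeostatic cells 4 and LP Treg against LN CD103-Klrg1- 3, LP Treg against LN CD103+Klrg1- and against CD103+Klrg1+ gave 2 each, and the interactions 2 (homeostatic), 3 (DEC) and 0 (homeostatic and DEC). With the replicate block the lamina propria and DEC interaction gave 4; the block changed no other call of a member. Leaving out 1 array gave 0 to 5 for LP Treg against LP Tconv, 2 to 4 for homeostatic cells, 0 to 1 for LN CD103+Klrg1+ against CD103+Klrg1-, 1 to 2 against CD103-Klrg1-, 2 to 2 for LP Treg against LN CD103-Klrg1-, 0 to 1 against each other subset, and 0 to 1, 0 to 5 and 0 to 1 for the interactions. The DEC comparison gave 0 under every alternative, as did LN CD103+Klrg1- against CD103-Klrg1- without any 1 array. A group left with 1 array was assumed to vary like the others. The causes were not tested. Over all genes, 338 in the lamina propria comparison became 18 with only its groups in the fit and 560 without the dim arrays; 220 in the homeostatic one became 1236 with weights and 753 with only its groups; 62 in the DEC one became 193 with weights, 110 with the block and 5 with only its groups. The median of all genes in the DEC comparison, 0.16, became -0.05 with quantile normalization and -0.02 with cyclic loess. With 2 arrays in 5 of 9 groups precision is limited, and levels of Lag3, Pdcd1 and Havcr2 near the median of all values are limited by background.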
